A study of Mus musculus with 12 samples.

Results

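The 36 genes described here are the transcription factors Myc and Mycn and 34 genes for building ribosomes and for cell growth. They were chosen by name, and all 36 were found among the 22307 gene symbols of the count tables. The table of bone marrow plate 4 has no UMI for 1 of them, Noc2l, and the other 35 were counted on all 12 plates. All 36 passed the filter on low counts.

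Single cells labelled as haematopoietic stem cells (HSC) came from 3 mouse tissues: the aorta-gonad-mesonephros (AGM), the embryonic site where HSC first form, the fetal liver, which then houses their expansion, and bone marrow. The series concerns a mouse line that carries heritable DNA barcodes for lineage tracing. The age, treatment, further alleles and sort markers of these animals were not given in the sources used here. A code in each title names the origin of a plate: AGM plates 1 and 2 share 1 code, fetal liver has 2 codes (plates 1 to 3, and plates 4 and 5) and bone marrow has 2 (plates 1 to 3, and plates 4 and 5). Whether a code stands for 1 animal or a pool is not stated, and bone marrow plates 4 and 5 have their tissue from the title only.

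After filtering, AGM contributed 143 cells, fetal liver 454 and bone marrow 423, and a plate held between 2596681 and 15977740 molecules counted by unique molecular identifier (UMI). An AGM cell had a median of 159228 UMIs, against 54303 in fetal liver and 59558 in bone marrow. None of 12 HSC markers was at 0 in any tissue. Levels are in CPM, UMI counts scaled to a common library total after adjustment by TMM (trimmed mean of M-values) factors. The HSC markers summed to 1385 to 1411 CPM on AGM plates, 1318 to 1458 in fetal liver and 1759 to 1985 in bone marrow. All 12 endothelial markers had UMIs in AGM, with sums of 1751 to 2195 CPM, against 839 to 1174 in fetal liver and 366 to 667 in bone marrow, where Cdh5 and Plvap were at 0. The sum of 8 mural and stromal markers was 52.2 to 65.9 CPM in AGM, with Col3a1 at 0, and at most 13.1 CPM elsewhere. Most of the AGM sum was Acta2, at 56.2 CPM over both plates, and the next tested marker, Tagln, was at 1.32 CPM. The sum of 9 erythroid markers ran from 38.2 to 2266 CPM among fetal liver plates. Whether the endothelial, mural, stromal and erythroid transcripts came from the HSC themselves or from other cells was not tested. Their part in the results below was not tested either.

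Myc and Mycn are basic helix-loop-helix factors that pair with Max and bind the E-box CACGTG. They switch on genes for growth, among them many that make ribosomes, and both are known in HSC, where Myc is linked to leaving the niche and to differentiation and Mycn can stand in for it in survival and proliferation. Ribosomes are made in the nucleolus: RNA polymerase I transcribes the ribosomal RNA precursor, small nucleolar RNA-protein particles (snoRNPs) guide its chemical modification, and assembly factors cut and fold it into the small and large subunits.

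To show where the E-box lies, the promoters of the members were searched for CACGTG, which reads the same on both strands. RefSeq start sites (GRCm38.p6) with 250 bases before and 50 after the start were at hand for 29 of the 36 members, and 6 of them (20.7%) held the motif, against 11.2% of 11615 tested genes and 8.09% of all 27025 genes with an entry. The 7 matches are shown as windows of 30 bases, 5′ to 3′ on the gene's strand, with the E-box in capitals. Another motif, CACGCG, was counted in the same promoters and was in 8 of the 29 members (27.6%), against 18.7% of tested genes. A match describes letters only, since binding was not measured here.
Mybbp1a: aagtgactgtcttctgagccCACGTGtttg
Wdr43: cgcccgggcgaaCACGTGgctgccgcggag
Utp20: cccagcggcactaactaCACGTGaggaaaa
Pes1: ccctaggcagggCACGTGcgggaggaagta
Nop2: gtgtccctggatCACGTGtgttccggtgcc
Nme1, first start: gctgcggggaacCACGTGaggccggggagc
Nme1, other start: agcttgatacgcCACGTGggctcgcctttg

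The windows lie at chr11:72441347-72441376 (Mybbp1a, plus strand), chr17:71616220-71616249 (Wdr43, plus), chr10:88826765-88826794 (Utp20, minus), chr11:3963965-3963994 (Pes1, plus), chr6:125131811-125131840 (Nop2, plus), chr11:93968273-93968302 and chr11:93968037-93968066 (both Nme1, minus). The E-box begins 18 bases before the first Nme1 start and 29 before the other, 60 bases before the Nop2 start, and after the start in Mybbp1a, Wdr43, Utp20 and Pes1. Of these 6 genes, Wdr43 passed the test as lower in fetal liver against AGM and Nme1 as lower in bone marrow against fetal liver. Of all tested genes 1.91% and 2.06% passed as lower there. Mycn and Gar1, whose searched promoters held no E-box, passed in 1 comparison each as well. A link between the motif and these calls was not tested.

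Myc (chr15:61985391-61990374, plus strand, mm10) rose from the embryonic sites to bone marrow. Its level was 41.8 and 54.0 CPM on the AGM plates. On fetal liver plates 1 to 5 it was 69.2, 65.0, 77.0, 70.7 and 90.5 CPM. On bone marrow plates 1 to 5 it was 172, 205, 216, 204 and 142 CPM. Every bone marrow plate was above every fetal liver plate, and every fetal liver plate was above both AGM plates.

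Summed by origin, Myc stood at 45.8 CPM in AGM. The fetal liver origins gave 70.8 and 77.0 CPM, and those of bone marrow 197 and 170 CPM. The edgeR quasi-likelihood test put bone marrow above fetal liver by a log2 fold change of 1.31 ± 0.23 (SE; 2.48-fold; adjusted p = 0.00136) and above AGM by 2.001 ± 0.31 (4.003-fold; adjusted p = 0.000156). Fetal liver against AGM gave 0.69 ± 0.29, which did not pass (adjusted p = 0.222). AGM has only 1 library, so its spread was taken from the other tissues. Without fetal liver plate 4 the difference between bone marrow and fetal liver was 1.17 and no longer passed (adjusted p = 0.216), while calls over all genes fell from 732 to 117.

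Mycn (chr12:12936093-12941914, minus strand, mm10) went the other way between the later tissues. Its level was 136 and 179 CPM on the AGM plates. On fetal liver plates 1 to 5 it was 278, 390, 265, 329 and 137 CPM. Bone marrow plates 1 to 5 gave 111, 86.0, 82.2, 158 and 155 CPM. Fetal liver plates 1 to 4 were above all other plates, and fetal liver plate 5 lay among those of AGM and bone marrow.

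By origin, Mycn stood at 150 CPM in AGM. The fetal liver origins gave 310 and 283 CPM, and those of bone marrow 95.9 and 159 CPM. It was lower in bone marrow than in fetal liver by a log2 fold change of -1.22 ± 0.24 (2.34-fold; adjusted p = 0.00344). Fetal liver against AGM gave 0.98 ± 0.30 (adjusted p = 0.0667) and bone marrow against AGM gave -0.24 ± 0.29 (adjusted p = 0.679), neither past the threshold of 0.05. Without fetal liver plate 4 the difference between bone marrow and fetal liver was -0.84 (adjusted p = 0.546).

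**Figure D1:**
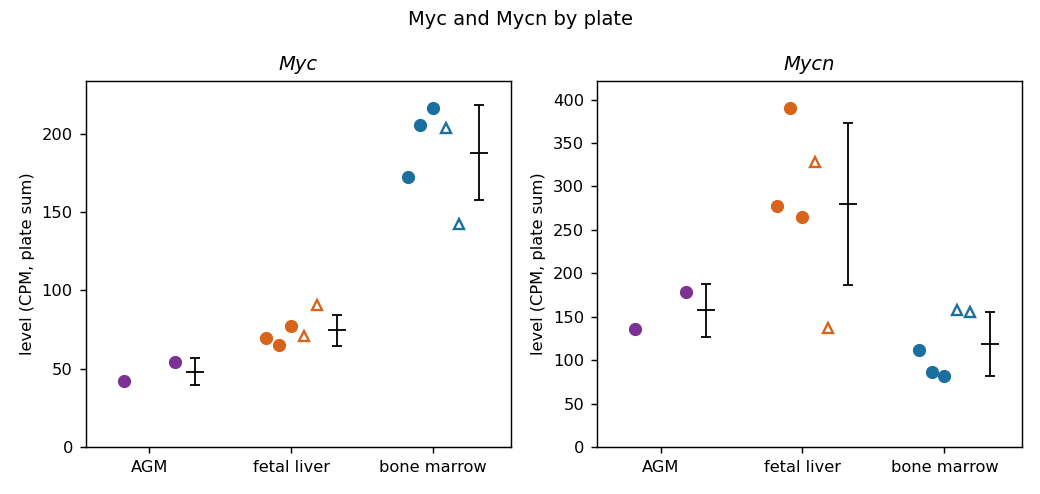
Level of Myc (left) and Mycn (right) in CPM (y axis) on each plate by tissue (x axis). Filled circles are plates of a tissue's first origin code, open triangles those of the second, and black bars are the mean ± SD over plates. Myc lies between 142 and 216 CPM on bone marrow plates and at most at 90.5 CPM elsewhere, and Mycn is highest on fetal liver plates 1 to 4.

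Between fetal liver and bone marrow the 2 factors thus differed in opposite directions. Of the UMIs of Myc and Mycn together, Myc made up 23.5% and 23.2% on the AGM plates and 23.4% (95% exact binomial interval 22.3 to 24.5%) over both. In fetal liver the plates gave 22.8% ± 9.9 (SD, n = 5 plates), from 14.3% on plate 2 to 39.7% on plate 5. In bone marrow they gave 61.6% ± 10.2 (SD, n = 5 plates), from 47.8% on plate 5 to 72.5% on plate 3. The bone marrow range lay above both others, and within bone marrow the first origin (67.2%) was above the second (51.7%). Such intervals cover counting error only. The sum of both genes was 205 ± 39.0 CPM (n = 2 plates) in AGM, against 354 ± 84.3 in fetal liver and 306 ± 31.4 in bone marrow (n = 5 plates each), so that fetal liver and bone marrow differed by less than the spread of fetal liver plates.

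The pair was also counted cell by cell. Each cell was thinned to 20000 UMIs, since AGM cells were deeper, which left 141 AGM, 419 fetal liver and 392 bone marrow cells. A Myc UMI but none of Mycn was found in 4.26% of AGM cells (95% exact interval 1.58 to 9.03%), 4.77% of fetal liver cells (2.94 to 7.28%) and 34.4% of bone marrow cells (29.7 to 39.4%). Mycn without Myc was found in 53.2% (44.6 to 61.6%), 46.8% (41.9 to 51.7%) and 16.8% (13.3 to 20.9%) of cells in the same order. Both were found in 26.2%, 40.1% and 21.2%. Neither was found in 16.3%, 8.35% and 27.6% of cells. On the plates the share with Myc alone was 0% to 13.3% in AGM and fetal liver and 28.3% to 41.5% in bone marrow, so these ranges did not overlap. The intervals pool the cells of a tissue and do not cover the spread between plates: fetal liver plate 5, at 13.3%, lay outside the fetal liver interval.

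Before thinning, a Myc UMI was found in 65.7% of AGM cells, and the shares for fetal liver and bone marrow were 64.3% and 72.8%. For Mycn the shares were 96.5%, 93.0% and 50.6%. The median number of Myc UMIs in a cell with any was 2 for AGM and for fetal liver and 6 for bone marrow. For Mycn these medians were 27, 13 and 5 UMIs. Myc was uneven among AGM cells: a single cell gave 23.3% of the Myc UMIs of AGM plate 1 and another gave 30.5% of those of plate 2, against 7.88% to 13.7% from the top cell of a bone marrow plate.

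**Figure D2:**
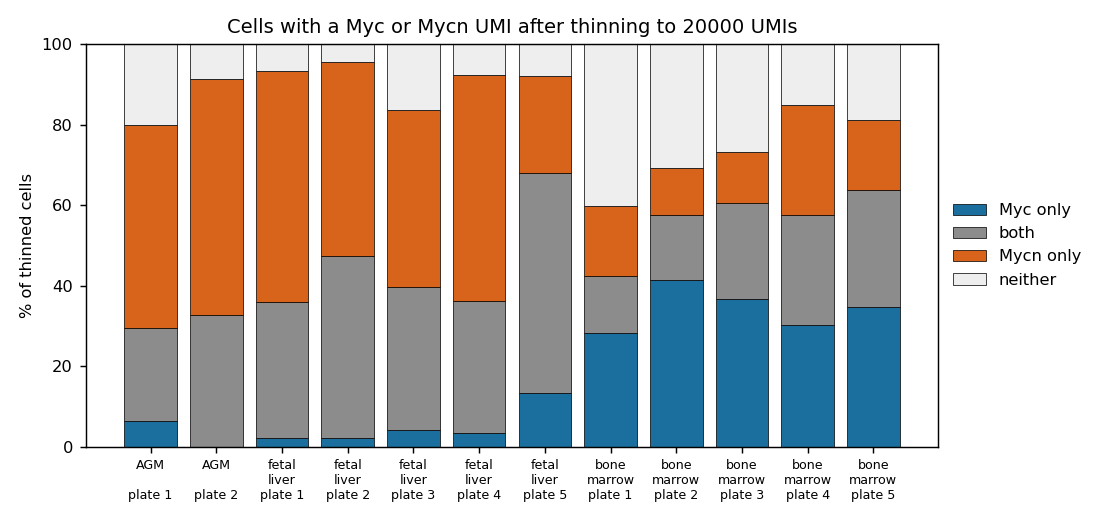
Share of thinned cells (y axis, percent) with a UMI of Myc only, of both genes, of Mycn only or of neither, for each plate (x axis). The part with Myc only is at most 13.3% on AGM and fetal liver plates and at least 28.3% on bone marrow plates.

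Few of the other 34 members passed the test. In fetal liver against AGM, 0 of the 36 members passed as higher and 1, Wdr43, as lower in the edgeR test. Of all 15472 tested genes 4.83% passed there, 2.92% as higher and 1.91% as lower. In bone marrow against fetal liver, Myc and Gar1 passed as higher and Mycn and Nme1 as lower, beside 4.73% of all genes, 2.68% as higher and 2.06% as lower. In bone marrow against AGM 1 member, Myc, passed as higher and 0 as lower, beside 8.92% of all genes, 5.29% as higher and 3.63% as lower. At an unadjusted p under 0.05 the members numbered 5, 6 and 6 of 36 in these 3 comparisons, beside 15.4%, 16.6% and 20.6% of all tested genes. DESeq2 gave the same numbers of called members in each. Of the 34 members other than Myc and Mycn, 1, 2 and 0 were called.

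The median log2 fold change of the 34 was -0.19 in fetal liver against AGM, -0.04 in bone marrow against fetal liver and -0.24 in bone marrow against AGM, beside 0.05, 0.00 and 0.04 over all tested genes. In each comparison 32 of the 34 lay within 2-fold. These sizes depend on the scaling: with plain library sizes the median of all genes moved to -0.16 and -0.19 in the 2 comparisons with AGM, and that of the 34 to -0.42 and -0.50. Counting plates that do not overlap in level, 12 of the 36 members were separated in fetal liver against AGM (26.6% of all tested genes), 4 in bone marrow against fetal liver (8.02%) and 9 in bone marrow against AGM (25.9%). With few plates in AGM such separation was common among all genes.

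**Figure D3:**
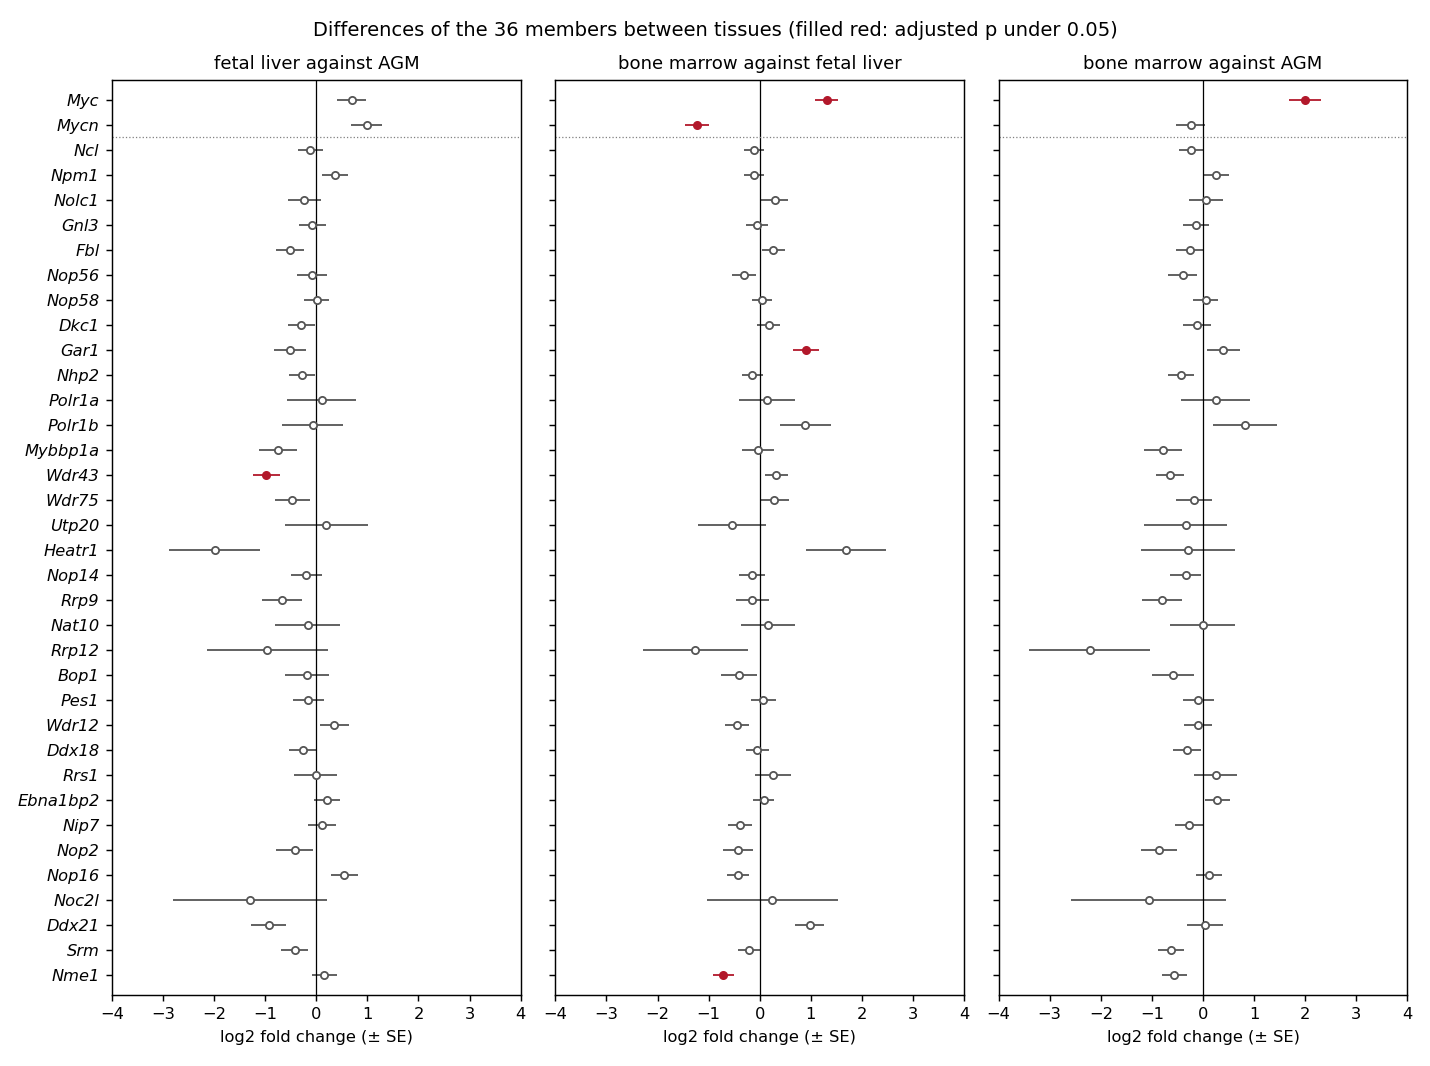
Log2 fold change ± SE (x axis) of each of the 36 members (y axis, Myc and Mycn above the dotted line) in the 3 comparisons of tissues, from the edgeR fit. Filled red points passed an adjusted p of 0.05: Wdr43 in the first panel, Myc, Mycn, Gar1 and Nme1 in the second, and Myc in the third.

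Of the nucleolar phosphoproteins 0 of 4 passed in any comparison. Ncl (nucleolin, which binds the ribosomal RNA precursor and its genes) was at 1042.8 to 1086.4 CPM on AGM plates, 881 to 1103 in fetal liver and 808 to 1068 in bone marrow. Npm1 (nucleophosmin, a histone chaperone that also serves export of ribosomal subunits) had 1498 to 1545, 1816 to 2225 and 1514 to 2160 CPM. Npm1 gave 19.5% ± 0.19 (SD, n = 2 plates) of the UMIs of the 34 members in AGM, against 26.3% ± 2.2 in fetal liver and 25.4% ± 5.1 in bone marrow (n = 5 plates each). Nolc1, a chaperone of snoRNPs, and Gnl3 (nucleostemin, a GTPase named for its abundance in stem cells) had log2 fold changes of -0.24 to 0.30 and -0.14 to -0.06 over the 3 comparisons.

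Of the box C/D snoRNP core, which adds methyl groups to ribosomal RNA, 0 of 3 genes passed in any comparison. Fbl (fibrillarin, the methyltransferase) was at 251 to 272 CPM on AGM plates, 93.2 to 243 in fetal liver and 160 to 274 in bone marrow. Nop58 had log2 fold changes of 0.0035, 0.05 and 0.05. Nop56 had log2 fold changes of -0.09, -0.31 and -0.40.

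In the box H/ACA core, which makes pseudouridine and also belongs to telomerase, 1 of 3 genes passed. Gar1 (chr3:129824912-129831396, minus strand) was at 87.4 and 97.0 CPM on AGM plates. On fetal liver plates 1 to 5 it was 89.8, 68.3, 61.3, 59.4 and 22.9 CPM, and on bone marrow plates 141, 116, 116, 75.3 and 132 CPM. Bone marrow plate 4 fell within the fetal liver range, and the other bone marrow plates were above it. The log2 fold change of bone marrow against fetal liver was 0.91 ± 0.26 (adjusted p = 0.0479), and it passed in only 7 of 28 alternative analyses. Dkc1 (dyskerin, the pseudouridine synthase) had 0.17 ± 0.22 and Nhp2 -0.14 ± 0.21 in the same comparison.

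The RNA polymerase I subunits among the members were counted at low levels. Polr1a, the largest subunit, had 0.454 to 22.9 CPM and Polr1b 2.02 to 34.1 CPM over the 12 plates, and neither passed. Mybbp1a, a nucleolar protein that binds ribosomal DNA, was at 75.2 and 90.3 CPM in AGM, at 42.3 to 52.9 in fetal liver and at 19.5 to 69.5 in bone marrow. Its log2 fold changes against AGM were -0.75 ± 0.37 in fetal liver and -0.79 ± 0.37 in bone marrow, with adjusted p of 0.345 and 0.233.

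Among the 8 small subunit factors, Wdr43, a part of the complex that first binds the nascent precursor, passed in 1 comparison. Wdr43 (chr17:71615895-71659031, plus strand) was at 425 and 361 CPM on AGM plates. Fetal liver plates 1 to 5 had 223, 179, 225, 215 and 128 CPM, and bone marrow plates 315, 331, 290.5, 186 and 194 CPM. Both AGM plates were above all others, and the bone marrow plates of the second origin lay in the fetal liver range. Fetal liver against AGM gave -0.98 ± 0.27 (adjusted p = 0.0402), a difference that passed in 11 of 28 alternative analyses. Its sign turned when cells with a UMI were counted in place of UMIs and scaled to all such counts of a library. Bone marrow against AGM gave -0.65 ± 0.27 (adjusted p = 0.167).

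The other 7 small subunit factors did not pass in any comparison. Nop14, Rrp9 (which binds the U3 snoRNA) and Wdr75 had plate levels of 60.0 to 107, 11.3 to 93.0 and 27.0 to 76.4 CPM. Utp20, Heatr1, Nat10 (an acetyltransferase of ribosomal RNA) and Rrp12 were low, with at most 36.2 CPM on any plate. Heatr1 had the most extreme changes of the 34 in 2 comparisons, with -1.99 ± 0.89 in fetal liver against AGM and 1.70 ± 0.78 in bone marrow against fetal liver, and Rrp12 in the other, with -2.22 ± 1.18 in bone marrow against AGM. Their adjusted p were 0.275, 0.280 and 0.307.

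For the large subunit, 0 of 11 genes passed in any comparison. Bop1, Pes1 and Wdr12, which act as 1 complex, had log2 fold changes in bone marrow against fetal liver of -0.40 ± 0.35, 0.07 ± 0.25 and -0.44 ± 0.23. Nop2, which methylates cytosine in ribosomal RNA, was at 65.0 and 90.1 CPM in AGM. It was at 46.2, 73.0, 48.5, 48.6 and 65.6 CPM in fetal liver and at 47.0, 26.9, 51.0, 38.6 and 36.8 CPM in bone marrow. All bone marrow plates were below both AGM plates, with a log2 fold change of -0.86 ± 0.35 that did not pass (adjusted p = 0.157). Ddx21, an RNA helicase that couples polymerase I transcription and processing, was at 119 to 132 CPM in AGM, 54.5 to 73.4 in fetal liver and 73.7 to 213 in bone marrow. Its log2 fold changes of -0.93 ± 0.34 in fetal liver against AGM and 0.98 ± 0.29 in bone marrow against fetal liver had adjusted p of 0.151 and 0.0621. Ddx18, Rrs1, Ebna1bp2, Nip7, Nop16 and Noc2l had log2 fold changes of -1.31 to 0.55.

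Of the growth enzymes, Nme1, a nucleoside diphosphate kinase, fell to bone marrow. Nme1 (chr11:93956979-93968521, minus strand) was at 711 and 697 CPM on AGM plates, at 743, 830, 901, 659 and 930.4 CPM on fetal liver plates 1 to 5, and at 562, 518, 451, 486 and 387 CPM on bone marrow plates. All bone marrow plates were below all others. Bone marrow against fetal liver gave -0.71 ± 0.20 (adjusted p = 0.0467) and bone marrow against AGM -0.56 ± 0.24 (adjusted p = 0.183). The first difference passed in the same direction in 12 of 28 alternative analyses. It turned upward, to 0.49 and 0.39, when cells with at least 1 or 2 UMIs were counted and scaled to all such counts of a library. Without that scaling the share of cells fell. In thinned cells a Nme1 UMI was found in 100% of AGM cells, 98.4% ± 1.2 (SD, n = 5 plates) of fetal liver cells and 76.3% ± 3.6 of bone marrow cells.

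Srm (spermidine synthase, which makes polyamines) was at 339 and 347 CPM in AGM, at 289, 309, 287 and 281 CPM on fetal liver plates 1 to 4 and at 188 to 254 CPM in bone marrow. On fetal liver plate 5 it was at 4.71 CPM, with a UMI in 12.4% of cells against 81.7% to 97.8% on the other fetal liver plates. This plate stood apart for other genes too: of 1530 genes at 100 CPM or more on the other 4 fetal liver plates, 25 were there at less than their lowest level divided by 10, while the same count was 0 for each other plate of fetal liver and bone marrow. Srm was the only member among the 25. It passed in no comparison. Bone marrow against fetal liver gave -0.20 ± 0.22 with that plate and -0.38 ± 0.21 without it. Myc and Mycn still passed between bone marrow and fetal liver without that plate, at 1.37 (adjusted p = 0.00133) and -1.33 (adjusted p = 0.00249), while Gar1, Nme1 and Wdr43 no longer passed their comparisons (adjusted p = 0.0848, 0.120 and 0.0812).

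**Figure D4:**
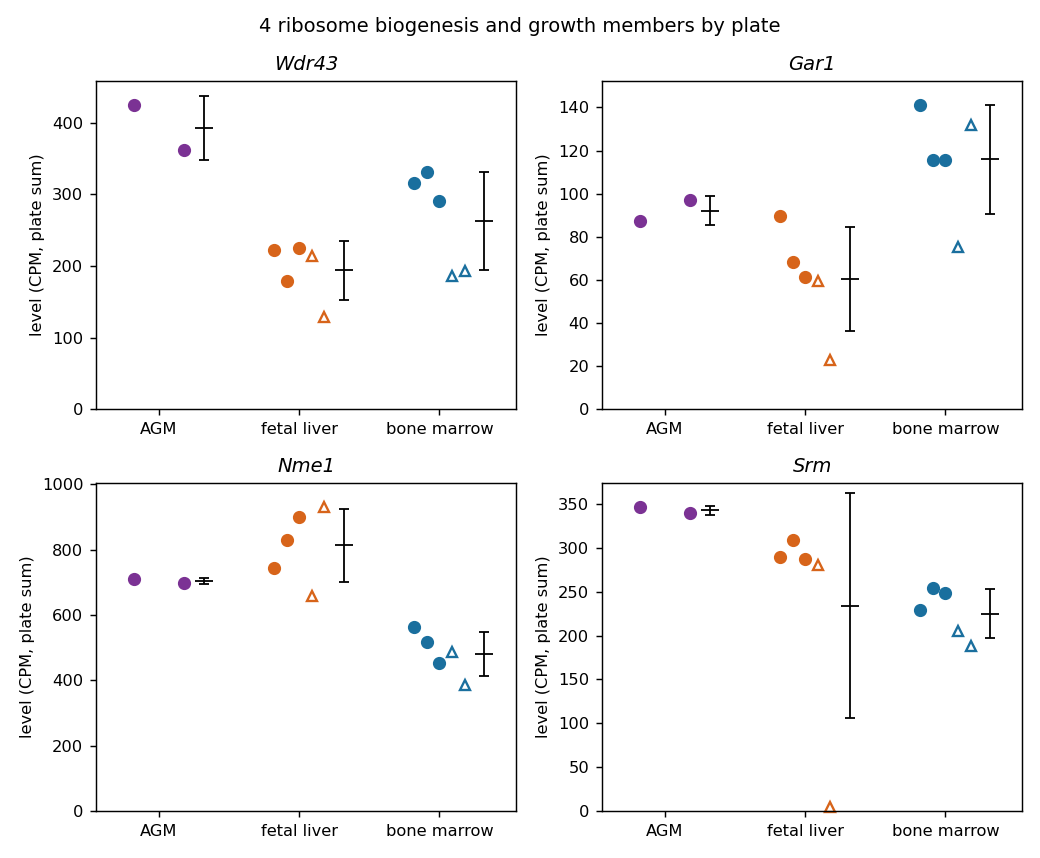
Level in CPM (y axis) of Wdr43, Gar1, Nme1 and Srm on each plate by tissue (x axis), with symbols and error bars as in the plot of Myc and Mycn. Nme1 is lower on all bone marrow plates than elsewhere, and Srm is at 4.71 CPM on fetal liver plate 5.

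Summed, the 34 members took 7812 ± 248 CPM (SD, n = 2 plates) in AGM, 7583 ± 344 in fetal liver and 7070 ± 538 (n = 5 plates each) in bone marrow. The AGM plates (7637 and 7987) lay within or just above the range of fetal liver (6989 to 7876). They were above all bone marrow plates (6361 to 7631), and the ranges of fetal liver and bone marrow overlapped. These sums depend on the scaling, in which a larger TMM factor lowers a plate's level. The factors were 1.14 and 1.16 on the AGM plates and 0.878 to 1.04 in fetal liver. Per thinned cell, without such factors, the plate medians were 178.5 and 183 UMIs in AGM and 128 to 154 in fetal liver, without overlap. Without Npm1 the sum was 6139 and 6442 CPM on the AGM plates, above all plates of fetal liver (5173 to 6040) and of bone marrow (4501 to 5876). Within bone marrow the origins differed, with 7505 CPM in the first and 6595 in the second. Leaving out the first bone marrow origin, 8 members passed as lower than in AGM and 2 as higher, beside 8.83% and 9.64% of all genes tested then. Leaving out the second, Myc, Gar1, Ddx21, Heatr1, Nolc1 and Wdr43 passed as higher than in fetal liver and Mycn and Nme1 as lower, beside 6.14% and 6.59% of all genes. Each of these analyses left 1 bone marrow library beside the 1 of AGM, so the spread came from the fetal liver libraries alone. Both called more genes in general. Whether the calls of members rose beyond that general rise was not tested.

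Genes of cell division fell in bone marrow in larger number. The sum of 36 genes of S, G2 and M phase was 5224 ± 63.5 CPM (SD, n = 2 plates) in AGM, against 3833 ± 261 in fetal liver and 1953 ± 519 in bone marrow (n = 5 plates each), with no overlap between tissues. In fetal liver against AGM 0 of these 36 passed as higher and 1, Cenpf, as lower. In bone marrow 0 were higher and 12 lower than in fetal liver, and 0 were higher and 20 lower than in AGM. Of all tested genes 1.91% passed as lower in fetal liver against AGM, 2.06% in bone marrow against fetal liver and 3.63% in bone marrow against AGM. Ccnb1, the cyclin that drives entry into mitosis, had a log2 fold change of -3.42 ± 0.43 in bone marrow against AGM (adjusted p = 1.49e-05).

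**Figure D5:**
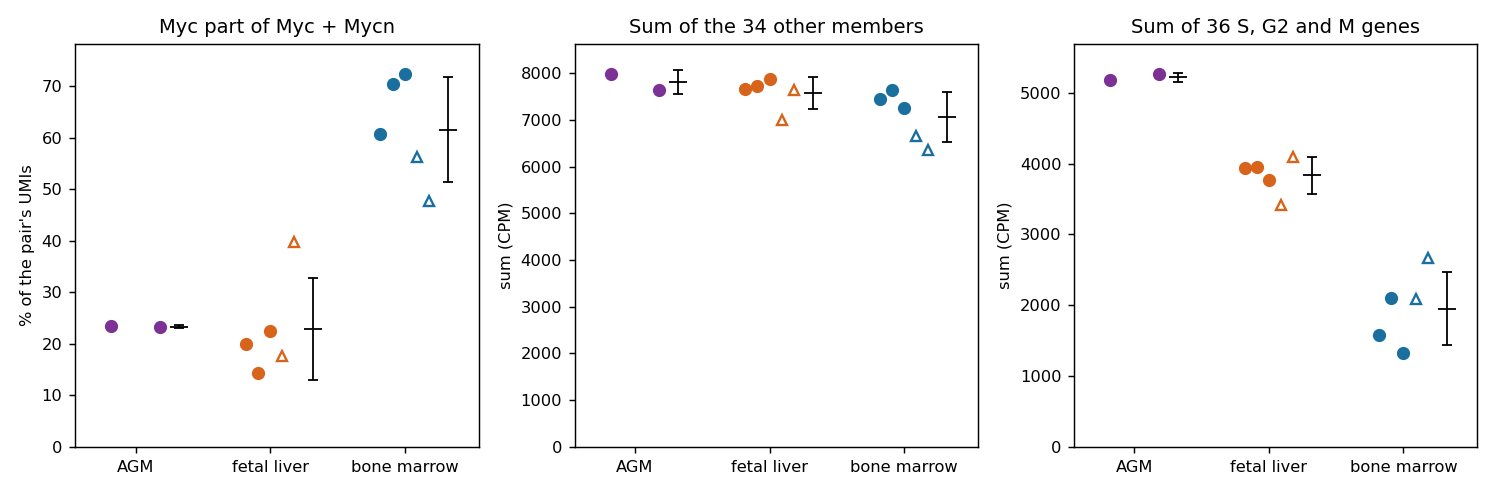
Myc's percentage of the UMIs of Myc and Mycn (left), summed level of the 34 other members (middle, CPM) and of 36 S, G2 and M phase genes (right, CPM), on each plate by tissue (x axis), with symbols and error bars as in the plot of Myc and Mycn. The Myc share is 47.8% or more only in bone marrow. The middle sums stay between 6361 and 7987 CPM on TMM-scaled totals, and the right sums fall from AGM to bone marrow.

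Per thinned cell the 34 members gave a plate median of 181 ± 3.2 UMIs (SD, n = 2 plates) in AGM, against 142 ± 9.7 in fetal liver and 130 ± 17.2 in bone marrow (n = 5 plates each). A cell had UMIs of 21 of the 34 in AGM, against 17.8 ± 1.3 in fetal liver and 12 ± 1.2 in bone marrow. All genes counted, a thinned cell had UMIs of 3366 ± 14.8, 3095 ± 306 and 1919 ± 154 genes, so that detection was lower in bone marrow for genes in general.

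Within a plate the 2 factors were set against the 34, cell by cell. Spearman's rho between Myc and the summed 34, over thinned cells of 1 plate, was 0.011 to 0.303 with a median of 0.182 and was above 0 on 12 of 12 plates. For Mycn it was -0.274 to 0.379 with a median of 0.057, above 0 on 9 of 12. For the S, G2 and M sum the median was 0.144, above 0 on 10 of 12. For the depth of the cell before thinning it was 0.217, above 0 on 10 of 12, and the rho of depth was larger than that of Myc on 5 plates and smaller on 7. These are descriptions over 46 to 95 cells of 1 library each, and in counts this sparse a weak correlation is no finding. The median of the 34 was higher in cells with a UMI of Mki67, Top2a, Cdk1, Ccnb1, Ccna2 or Cenpf than in the other cells on 7 of 12 plates. In bone marrow, where 23 or more cells per plate lacked these UMIs, the ratio of the medians was at most 1.20 and never below 1.

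Partners and relatives of Myc were examined as well. Of 16 genes of the Myc network 14 could be tested, and 0 passed edgeR's test in any comparison (0, 2 and 2 at an unadjusted p under 0.05). Max, the partner of all Myc proteins, was at 68.8 CPM in AGM and at 91.3 and 79.4 CPM on average in fetal liver and bone marrow. Mga, a large Max-binding repressor, had a log2 fold change of 0.91 ± 0.30 in bone marrow against fetal liver (adjusted p = 0.103). The network's median log2 fold changes were 0.44, 0.13 and 0.21 in fetal liver against AGM, bone marrow against fetal liver and bone marrow against AGM.

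Further genes of ribosome production were counted beside the calls over all genes. Of all tested genes 4.83% passed in fetal liver against AGM, 4.73% in bone marrow against fetal liver and 8.92% in bone marrow against AGM. Of 14 further RNA polymerase I genes 0 passed against AGM in either tissue, and 1 rose from fetal liver to bone marrow: Twistnb, a polymerase I subunit, by 0.87 ± 0.22 (adjusted p = 0.0254). Of 41 further small subunit factors 0 passed in any comparison (4, 4 and 6 at an unadjusted p under 0.05), with medians of -0.10, -0.06 and -0.14. Of 44 further large subunit factors 0 passed in fetal liver against AGM. Wdr18, which belongs to a complex that matures the large subunit, was lower in bone marrow, with log2 fold changes of -0.89 ± 0.24 against fetal liver (adjusted p = 0.0370) and -1.41 ± 0.28 against AGM (adjusted p = 0.00220), and Nop53 rose by 0.89 ± 0.25 against AGM (adjusted p = 0.0314). The medians of these 44 were -0.22, -0.05 and -0.19.

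Of 30 known Myc targets of growth outside the nucleolus, such as Odc1, Cad and Ldha, 0 passed in any comparison. The shares of all tested genes were 4.83%, 4.73% and 8.92%. At an unadjusted p under 0.05 they numbered 2, 9 and 3, to be read, like the counts of the lists before, beside the 15.4%, 16.6% and 20.6% of all tested genes. Their median log2 fold changes were -0.03, -0.21 and -0.29. In bone marrow against fetal liver 7 of 30 were above 0, beside 7690 of all 15472 tested genes. A link of these changes to Myc or Mycn was not tested. Of 17 targets of p53, the factor that is stabilised when ribosome production is disturbed, 0 passed as higher. Cdkn1a, Btg2, Perp and Plk2 were lower in fetal liver than in AGM, beside 1.91% of all tested genes. Cdkn1a, Phlda3, Btg2 and Plk2 were lower in bone marrow than in AGM, beside 3.63%. In bone marrow against fetal liver 0 of the 17 passed edgeR's test, beside 4.73% of all tested genes. At an unadjusted p under 0.05 they numbered 3, beside 16.6%. The log2 fold change there was -2.55 ± 0.76 for Phlda3 (adjusted p = 0.0587) and 3.22 ± 1.01 for Perp (adjusted p = 0.0794). Cdkn1a, the cell cycle inhibitor, was at 59.2 CPM in AGM, against 6.55 in fetal liver and 6.49 in bone marrow. AGM differs in these comparisons also in its endothelial markers and in Acta2, given above. Of the mural and stromal markers 1 of 7 tested, Acta2, passed as lower than in AGM in each tissue. In bone marrow against AGM 4 of the 7 had a log2 fold change above 0.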

How the data were processed

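The authors deposited 1 table of UMI counts per plate, raw and per gene symbol and well. Per the labels' protocols, nuclei were removed on beads and cytoplasmic polyadenylated RNA was processed with a modified scSTRT-seq. The submitters' processing notes name SAMtools, UMI-tools and featureCounts and the mm10 build; the versions, annotation and strand setting: not given in the sources used here. Without a known strand setting, reads of overlapping genes cannot be told apart; Heatr1 (1042 UMIs) shares 1.98% of its exon bases with the opposite gene Lgals8 (3676 UMIs), Noc2l 20.9% with the opposite gene Samd11 (3 UMIs) and Nme1 12.5% with Gm20390 on its own strand (0 UMIs). Near copies with UMIs were found for Fbl and Wdr12.

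Wells with fewer than 1000 genes, fewer than 3000 UMIs or 20% or more mitochondrial UMIs were left out, which kept 1020 of 1152 wells. No doublet caller was run, since cells were sorted singly. All plates use the same 96 well barcodes, and no 2 plates held identical counts. UMIs were summed over plates with 1 origin code (1 AGM, 2 fetal liver and 2 bone marrow libraries of 24323995; 16516736 and 11525376; 24699454 and 6086932 UMIs). The libraries were compared with edgeR 4.0.16 (R 4.3.3): TMM, filterByExpr, quasi-likelihood test, Benjamini-Hochberg over 15472 genes, threshold 0.05. Residual degrees of freedom were 2, the prior 18.0 and the common biological coefficient of variation 0.619. SE is the log2 fold change divided by the square root of F, an approximation. Nothing says that origins are separate animals, so p-values refer to the spread between these libraries. With a prior of 18.0 beside 2 residual degrees of freedom, that spread was mostly shared over all genes. Little of it came from the gene itself, and AGM with its 1 library added none. Plate levels are CPM on TMM-scaled totals of the 12 plates.

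The members and lists were chosen with earlier results of these data known. Named in full were Myc, Mycn, up to 3 called members per direction and the 2 largest changes among members that reached 20 CPM; of other lists, up to 3 called genes per comparison. Wdr75, Mga, Max, Srm, Ddx21 and others given with values beyond this rule were named to account for the members or chosen after their values were seen. The 28 alternatives cover DESeq2 1.42.0, limma 3.58.1, scaling, filters, cell counts, thinning, plates and origins.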

Additional observations from a re-analysis of the deposited data

Results flagged for a closer look

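Groups of 5 plates were checked for a plate far from the other 4, and 6 of 80 groups had one; chance gives about 1 in 20. In fetal liver, Pes1 was low on plate 2 (54.9 CPM, others 74.4 to 81.3), Srm was low on plate 5 (4.71 CPM, others 281 to 309), and the sum of the 34 members other than Myc and Mycn was low on plate 4 (6989 CPM, others 7647 to 7876). In bone marrow, Heatr1 was high on plate 1 (30.7 CPM, others 5.20 to 11.3), Rrs1 was high on plate 3 (94.3 CPM, others 27.6 to 45.4), and the sum of Myc and Mycn was high on plate 4 (361.5 CPM, others 283 to 298.5). The 132 wells that were left out as cells held 616 UMIs of the 34 members, or 5715 CPM of their 107785 UMIs, with a median of 56.5 UMIs per well.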

How the results depend on the processing

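Myc passed as higher in bone marrow than in AGM in 28 of 28 alternatives (1.298 to 3.16) and than in fetal liver in 26 of 28 (0.86 to 1.44). The exceptions were the analysis without fetal liver plate 4 and that of cells without a cycling gene UMI (adjusted p = 0.501). The latter kept 5 and 1 cells of the AGM plates, 2 to 17 of a fetal liver plate and 23 to 62 of a bone marrow plate. It called 48 of 10999 tested genes in bone marrow against fetal liver. Mycn passed as lower in bone marrow than in fetal liver in 25 of 28; it did not without fetal liver plate 4 or when cells with at least 1 UMI (-0.16) or 2 UMIs (-0.51) were counted. Mycn in fetal liver against AGM passed in 7 of 28. In bone marrow against AGM it turned to 0.25 and 0.0718 with cells counted and to 0.0851 without bone marrow plates 1 to 3, and it passed at -0.66 without plates 4 and 5. Counting cells turned Wdr43 in fetal liver against AGM to 0.13 and 0.0674 and Nme1 in bone marrow against fetal liver to 0.49 and 0.39. Where cells were counted, the cells with a UMI were summed per gene and library and then scaled as UMIs were. Such values are therefore relative to the detection of all genes, which was lower in thinned bone marrow cells than in AGM cells. Unscaled, the share of cells with a Mycn UMI was lower in bone marrow than in AGM, as given above. The cause of the turned signs was not tested.

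Counts of called members follow as fetal liver against AGM, bone marrow against fetal liver, and bone marrow against AGM, where they moved by over 1.5 times, with the median of the 34 where it moved. Cells with at least 1 UMI: 0 lower; 5 higher and 0 lower; 8 higher and 1 lower; medians 0.0713, 0.19 and 0.23. Cells with at least 2 UMIs: 5 higher and 2 lower; 6 higher and 0 lower; 7 higher and 1 lower; medians 0.0479 in the first and 0.10 in the last. Cells without a cycling gene UMI: 1 higher and 0 lower; 0 higher and 1 lower; 2 higher; medians -0.50 and 0.19 in the first and second. Each plate a library in limma: 3 higher and 4 lower in the first, 5 lower in the last. That setting treats plates of 1 origin as replicates, and its estimated correlation within an origin was -0.098. No filter on low counts: 1 higher and 2 lower in the first. Only the 2 tissues compared: 2 higher and 3 lower; 1 higher and 1 lower. Plain library sizes: 1 higher and 1 lower in the second, 1 lower in the last, medians -0.42 and -0.50 against AGM. Stricter cell filter: 0 lower; 1 higher and 1 lower. Upper-quartile factors: 0 lower; 1 higher. Thinned cells and no cell filter: 1 higher in the second.

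Without bone marrow plates 1 to 3 the counts were 2 higher and 2 lower in the first and 2 higher and 8 lower in the last, with medians of -0.23 and -0.43 for bone marrow. Without bone marrow plates 4 and 5 they were 2 higher and 3 lower, 6 higher, and 2 lower. Without either fetal liver origin they were 0 lower, and 1 higher and 1 lower. Leaving out 1 plate at a time gave 0 to 1 higher and 0 to 1 lower in the first, 0 to 3 higher and 0 to 2 lower in the second, and 1 higher and 0 to 1 lower in the last; without fetal liver plate 4 the second had 0 and 0. These counts stand beside shares of all tested genes that moved as well: over the 28 alternatives 1.19% to 17.8% were called in the first comparison, 0.436% to 15.5% in the second and 2.15% to 26.3% in the last. The highest shares came from counting cells with at least 2 UMIs in the first and from limma on plates in the others (15.8% in the first).

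No paired analysis was possible because the plate numbers only name plates of different origins in each tissue. Depth limits the low members: 29 of the 34 had at least 10 UMIs on every plate.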
